A study of Homo sapiens with 33 samples.

Results

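TS cells that made a mutated control hairpin under doxycycline were set against TS cells whose ALK hairpin had not been switched on, over all probe sets of the array. The comparison took its members from the sample titles and held 6 of the 33 samples in the series, 3 in each group. TS is a subclone of Sup-M2, a human ALK-positive line of the T-cell lymphoma ALCL (anaplastic large cell), which an ALK fusion kinase drives. Both groups were cells that had first received pLV-DsRed-tTRKRAB, a vector for a doxycycline-responsive repressor, then pLVTH-GFP-shRNA particles carrying a short hairpin RNA (shRNA), and that had been sorted by their fluorescent reporters, expanded and grown in RPMI 1640 with 10% FCS. The A5M cells carried the mutated hairpin and received doxycycline at 1 microg/ml for 84 h. The uninduced cells carried A5, the hairpin against ALK, and are labelled as the 84 h samples without doxycycline. No A5M sample without doxycycline was analysed here. The drug, the hairpin that was made and the transduced culture therefore differed together, and their parts in any difference cannot be told apart. Nothing in the labels says that the replicates were grown separately. The p-values reflect scatter within groups, pooled over the 21 arrays of the 7 hairpin groups and not over these 6 alone. That scatter may be technical.

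Doxycycline is a tetracycline antibiotic that binds bacterial ribosomes, and in animal cells it can also slow translation on mitochondrial ribosomes. It is the inducer here and acts on every cell that receives it. Among the stress pathways of animal cells, hypoxia-inducible factors (HIF) are transcription factors held down by oxygen-dependent prolyl hydroxylases. They bind a short DNA core in genes for glucose uptake, glycolysis, blood vessel growth and mitochondrial turnover. ATF4 is a transcription factor whose translation increases when amino acids run short or when the endoplasmic reticulum or mitochondria are stressed. With partner proteins it binds CEBP-ATF response elements in genes for amino acid synthesis and transport and for the charging of tRNA.

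RNA was measured on Affymetrix HG-U133A arrays, and the values are MAS5 signals, a linear intensity for each probe set. Fold changes are A5M cells with doxycycline over uninduced A5 cells, as differences of log2(signal + 11), an offset that makes the change of dim genes look smaller; the ± beside them is the standard error of the limma fit, with 3 arrays per group. A gene was called when its limma adjusted p was under 0.05 over the 9097 genes tested. Replicate arrays of the 2 groups correlated at r = 0.969 to 0.980. The ratio of 3′ to 5′ signal of ACTB, a measure of RNA integrity, was 1.52 ± 0.0767 on A5M arrays and 1.54 ± 0.0479 on uninduced arrays (SD, n = 3 each; two-sided exact permutation p = 0.7, where 0.1 is the smallest that 3 against 3 can give). For GAPDH it was 0.889 ± 0.0652 on A5M arrays and 0.867 ± 0.0607 on uninduced arrays (SD, n = 3 each; exact permutation p = 0.5). A5M replicate 3 and uninduced replicate 2 fitted their groups least well, with array weights of 0.343 and 0.430 where 1 is average.

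ALK and the markers of cell identity were examined first. ALK signal was 1667.2, 1652.0 and 1739.0 on A5M arrays, against 1927.3, 2090.7 and 2100.3 on uninduced arrays. All 3 A5M values lay below all 3 uninduced values, and below the uninduced 72 h arrays, but the gene was not called (-0.27 ± 0.11, limma adjusted p = 0.15). Its further probe set averaged 401.8 on A5M arrays and 504.1 on uninduced arrays and was not called either (-0.32 ± 0.11, limma adjusted p over all probe sets = 0.098). The ALK hairpin with doxycycline gave a difference of -3.0 ± 0.11 (limma adjusted p = 2.9e-16) against the same uninduced arrays. NPM1, the usual fusion partner of ALK in this disease, differed by -0.02 ± 0.07 by the probe set tested. Its further probe sets gave -0.08 ± 0.08 and -0.36 ± 0.09, and the last averaged 1995 on A5M arrays and 2564 on uninduced arrays (limma adjusted p over all probe sets = 0.02). Of 13 tested T-cell and ALCL markers 1 was called higher and 1 lower, against 3.25% and 3.8% of all tested genes. GZMB, a cytotoxic granule protease, was higher (0.42 ± 0.09). IL2RA, the interleukin 2 receptor alpha chain CD25, was lower (-0.59 ± 0.12). Against uninduced 72 h cells IL2RA was called (-0.64 ± 0.12) and GZMB was not (0.23 ± 0.09). With only the 6 arrays of the comparison in the fit, 0 of the 13 were called. TNFRSF8, the CD30 antigen that defines the disease, gave 1340.4 to 1522.4 on A5M arrays and 1357.4 to 1459.7 on uninduced arrays. CD3D, a chain of the T-cell receptor complex, reached 915.3 to 1101.5 on A5M arrays and 1107.2 to 1342.9 on uninduced arrays, while the receptor chains CD3E and CD247 and the coreceptor CD4 stayed under 150 on all 6 arrays. None of 5 B cell, 7 epithelial and stromal or 2 erythroid and platelet markers was called by limma (1, 0 and 0 at an unadjusted p under 0.05). The summed signal of 8 myeloid markers was 2654 to 2819.4 on A5M arrays and 1993.9 to 2254.1 on uninduced arrays, where S100A8 and S100A9 made most of the sum, LYZ was under 5 and CD14 under 22. S100A9 was the 1 of 6 tested myeloid markers called (0.68 ± 0.15, limma adjusted p = 0.0064), its groups overlapped, and the part of other cells in it was not tested.

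Across the array 642 genes were called, 7.06% of those tested, against 3681 (40.5%) for the ALK hairpin with doxycycline at the same time and over the same uninduced arrays. The ACTB 3' to 5' signal ratio, a sign of RNA quality, was 1.44 to 1.58 on A5M arrays and 1.25 to 1.29 on arrays of the ALK hairpin with doxycycline, against 1.48 to 1.58 on uninduced arrays. With this ratio as covariate A5M gave 603 calls and the ALK hairpin 1904. Of the 642, 296 were higher (3.25%) and 346 lower (3.8%) in A5M cells. The changes were small: the median absolute log2 fold change was 0.53 among called genes and 0.17 among all genes, and the median of all genes was 0.0011. The larger changes leaned downward, with 57 called genes lower by at least 2-fold (0.627%) and 17 higher (0.187%). The groups did not overlap in 607 of the called genes; among all tested genes, called or not, 9.5% lay below every uninduced 84 h array and 9.1% above. At an unadjusted p under 0.05 there were 1776 genes. With only the 6 arrays of the comparison in the fit, 147 genes passed.

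A second uninduced group, A5 cells without doxycycline labelled 72 h, showed how far uninduced groups differed, from causes that were not tested. Uninduced 84 h cells differed from uninduced 72 h cells in 368 genes (4.05%), and this count fell to 183 without uninduced 84 h replicate 2. Of the 346 genes called lower in A5M cells, 235 (2.58% of tested genes) lay below all 6 uninduced arrays, those of 72 h included. Of the 296 called higher, 160 (1.76% of tested genes) lay above all 6. Called or not, 4.51% of all tested genes lay below and 4.54% above all 6. A5M cells against uninduced 72 h cells gave 705 calls (7.75%), 366 lower (4.02%) and 339 higher (3.73%), from the same A5M arrays. The time of harvest and the culture are confounded in that comparison, and its values are a description.

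The 15 largest decreases, taken only from called genes whose groups do not overlap, included ANGPTL4, NLRP3, TREM1, CLEC2B and SGK1. ANGPTL4, a secreted inhibitor of lipoprotein lipase, gave 23.3, 9.9 and 35.4 in A5M cells, against 139.4, 217.0 and 160.5 in uninduced cells (-2.49 ± 0.21, limma adjusted p = 3.4e-08). NLRP3, the sensor of an inflammasome that activates caspase 1, gave 12.2, 10.9 and 8.6 in A5M cells, near the added 11, against 70.4, 77.6 and 113.0 in uninduced cells (-2.16 ± 0.16, limma adjusted p = 2.8e-09). Both genes lay below all uninduced 72 h arrays as well. TREM1, a receptor that amplifies inflammatory signals in myeloid cells, gave 715.3, 714.2 and 746.4 in A5M cells, against 2215.1, 2365.8 and 2295.3 in uninduced cells (-1.65 ± 0.10, limma adjusted p = 1.7e-10). CLEC2B, a C-type lectin that serves as a ligand of an activating natural killer receptor, gave 198.8, 196.6 and 138.5 in A5M cells, against 831.6, 900.2 and 736.3 in uninduced cells (-2.15 ± 0.18). SGK1, a kinase downstream of PI3K, gave 193.1, 214.1 and 277.8 in A5M cells, against 720.5, 725.9 and 639.0 in uninduced cells (-1.57 ± 0.15). The choice fixed that the groups stay apart, and in these 3 genes the gap was wide.

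APOL1, an apolipoprotein that lyses trypanosomes, differed by -1.57 ± 0.11, and RBPMS, an RNA-binding protein, by -1.53 ± 0.14. TNFSF14, the cytokine LIGHT, differed by -1.81 ± 0.32, with 46.5, 8.1 and 6.0 in A5M cells against 69.4, 77.0 and 102.3 in uninduced cells. AOAH, an enzyme that deacylates bacterial lipopolysaccharide, differed by -1.66 ± 0.30, and the kidney ion transporter SLC12A1 by -1.88 ± 0.32, both at signals under 90. These 3 dim genes were called with all 21 arrays but not in a fit of the 6 arrays alone, where SLC12A1 and AOAH missed the filter and TNFSF14 had a limma adjusted p of 0.052. MAPK3, the kinase ERK1, was the 1 of the 15 leading lower genes whose call ended when a single array was left out (-1.53 ± 0.38, highest limma adjusted p = 0.096), and the 1 that did not lie below all 6 uninduced arrays.

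**Figure D1:**
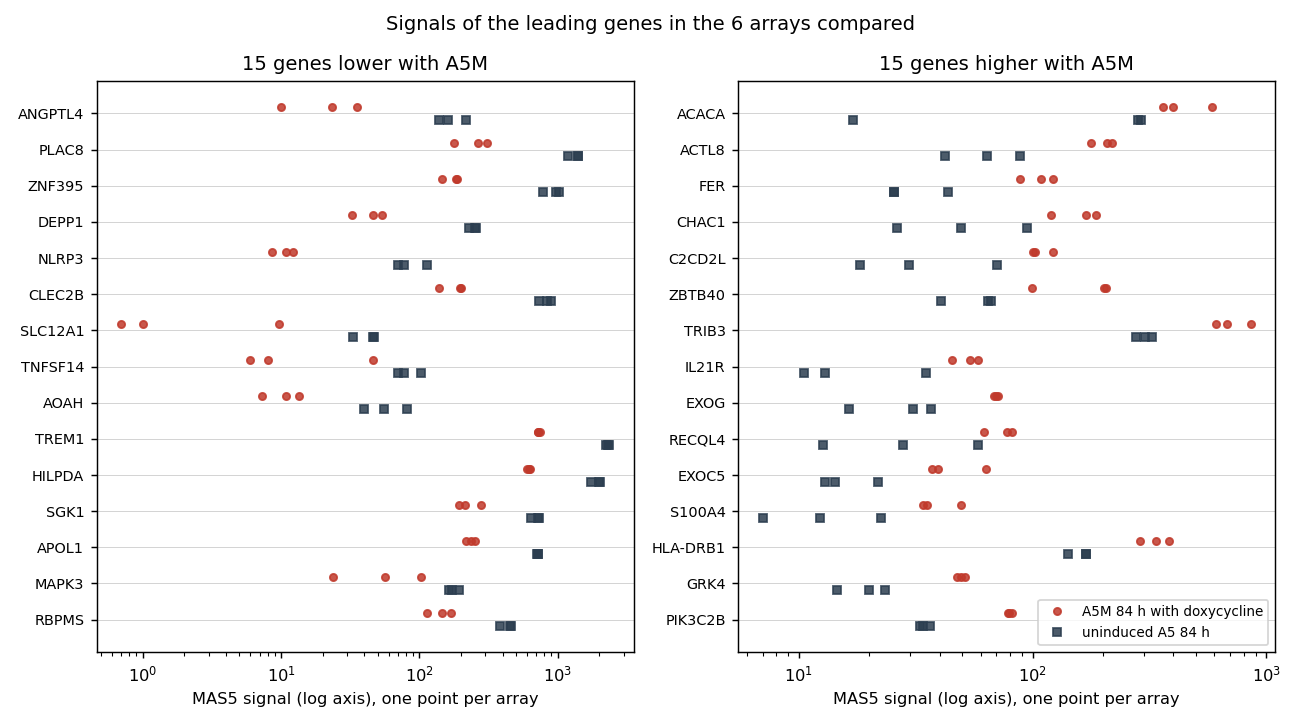
MAS5 signal on a log axis for the 15 called genes with the lowest and the 15 with the highest log2 fold change among those whose groups do not overlap, 1 point per array. Circles are the 3 A5M arrays with doxycycline and squares the 3 uninduced A5 84 h arrays; ACACA shows a single uninduced array at 17.0 far from the other two.

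The calls of the leading higher genes rested more on single arrays. Of the 15 leading higher genes 8 were called in all 6 fits that left out 1 array, against 14 of the 15 leading lower genes, and 4 against 14 were called when A5M cells were set against uninduced 72 h cells. TRIB3, a pseudokinase induced by ATF4, gave 607.4, 681.2 and 859.4 in A5M cells, against 323.7, 276.7 and 301.8 in uninduced cells (1.21 ± 0.11, limma adjusted p = 7.6e-08). FER, a cytoplasmic tyrosine kinase, gave 108.8, 121.8 and 88.5 in A5M cells, against 25.4, 25.6 and 43.3 in uninduced cells (1.48 ± 0.21). PIK3C2B, a class II PI3K, gave 81.6, 79.2 and 78.7 in A5M cells, against 33.8, 36.3 and 32.9 in uninduced cells (1.00 ± 0.20). In all 3 genes every A5M array lay above all 6 uninduced arrays. ACTL8, an actin-like protein mostly of testis, also rose in this way (1.53 ± 0.27).

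ZBTB40, a zinc finger protein, rose by 1.36 ± 0.26 against uninduced 84 h cells, but its uninduced 72 h level, 109 on average, lay within the A5M values of 205.4, 99.2 and 203.1. S100A4, a calcium-binding protein tied to cell motility, gave 33.8, 49.4 and 35.4 in A5M cells, against 7.0, 12.3 and 22.4 in uninduced cells (1.05 ± 0.22). With the ALK hairpin and doxycycline at 84 h the same gene averaged 1535. ACACA, which makes malonyl-CoA for fatty acid synthesis, gave 359.9, 399.7 and 586.1 in A5M cells, against 282.7, 17.0 and 290.7 in uninduced cells (1.73 ± 0.52, limma adjusted p = 0.046). Its difference turned on the 1 uninduced array at 17.0, its second probe set gave -0.05, and it was called in 2 of the 6 fits without 1 array. C2CD2L, RECQL4 and GRK4 were each called in 1 of these 6 fits, IL21R in 2 and EXOG and EXOC5 in 5.

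Many genes of the hypoxia response were lower in A5M cells. Of 42 tested members 22 were lower and 1 was higher, against 3.8% lower and 3.25% higher among all tested genes, and the list's median was -0.48 against 0.0011 for all genes. Of the 22, 18 lay below all 6 uninduced arrays. Of 27 tested glycolysis members 12 were lower and 0 higher, with a median of -0.30; by limma none was higher at an unadjusted p under 0.05 either. Of these 12, 7 lay below all 6 uninduced arrays. The fit of the 6 arrays alone called 18 hypoxia and 4 glycolysis members. The glycolysis count was 7 without A5M replicate 1, A5M replicate 2 or uninduced replicate 2. The called genes SLC2A1, SLC2A3 and PFKFB4 belong to both lists and are counted in each.

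The promoters of 3 of the called members are shown because they hold the DNA core that HIF binds, searched as ACGTG or GCGTG on both strands of the 250 bases before the gene start. The sequences are from RefSeq, build GRCh38.p14, on the strand of the gene, and capitals mark the core. The ANGPTL4 window is chr19:8363905-8364154 (plus strand), with its core at -234 from the gene start; that of PFKFB4 is chr3:48556804-48557053 (minus strand), with its core at -166; and that of GBE1, a glycogen branching enzyme, is chr3:81761646-81761895 (minus strand), with 2 cores.
ANGPTL4: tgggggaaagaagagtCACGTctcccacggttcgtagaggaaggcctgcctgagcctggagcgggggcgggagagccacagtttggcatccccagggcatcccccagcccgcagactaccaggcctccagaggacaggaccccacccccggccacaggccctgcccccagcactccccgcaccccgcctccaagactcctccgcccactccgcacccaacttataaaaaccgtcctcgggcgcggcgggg
PFKFB4: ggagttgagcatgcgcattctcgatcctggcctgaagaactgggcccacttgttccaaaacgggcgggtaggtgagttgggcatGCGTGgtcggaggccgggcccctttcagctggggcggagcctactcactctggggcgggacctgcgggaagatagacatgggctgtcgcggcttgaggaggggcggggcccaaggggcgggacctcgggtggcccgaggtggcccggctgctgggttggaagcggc
GBE1: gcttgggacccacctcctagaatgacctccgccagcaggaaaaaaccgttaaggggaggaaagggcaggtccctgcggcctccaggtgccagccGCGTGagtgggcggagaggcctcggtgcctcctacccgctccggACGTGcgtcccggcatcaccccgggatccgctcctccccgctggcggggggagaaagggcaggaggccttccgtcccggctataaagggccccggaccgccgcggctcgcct
Such a window was found for 55 of the 64 tested members of both lists and for 7461 of the 9097 tested genes. The core was present in 21 of the 26 windows of members called lower (80.8%), in 16 of the 29 windows of other tested members (55.2%), in 56.1% of the windows of all tested genes and in 43.1% of all 27305 windows in the table. A match describes the letters in the window and is not a measured binding site.

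Within the hypoxia list, the genes that fell ranged over several roles. ZNF395, a zinc finger protein induced by hypoxia, gave 146.5, 188.3 and 182.7 in A5M cells, against 965.3, 779.4 and 1017.8 in uninduced cells (-2.34 ± 0.11, limma adjusted p = 1.8e-12). HILPDA, which coats lipid droplets and restrains lipolysis, gave 631.5, 604.1 and 616.9 in A5M cells, against 2025.9, 1725.9 and 2002.0 in uninduced cells (-1.61 ± 0.14). DEPP1, a target of both HIF and FOXO factors, gave 46.1, 53.8 and 32.4 in A5M cells, against 226.3, 256.0 and 250.3 in uninduced cells (-2.23 ± 0.13). NDRG1, a stress-induced differentiation gene, gave 510.8, 416.8 and 625.4 in A5M cells, against 1170.1, 996.6 and 1739.1 in uninduced cells (-1.29 ± 0.14). Each of these 4 genes was called in all 6 fits that left out 1 array. NDRG1 separated the groups without overlap, which the choice of leading genes had fixed for ZNF395, HILPDA and DEPP1. The mitophagy receptors BNIP3L (-1.19 ± 0.14) and BNIP3 (-0.89 ± 0.22) were lower as well. So were, named after their values were seen, INSIG2, which holds back sterol synthesis (-1.22 ± 0.12), the transcription regulators MXI1 (-1.0 ± 0.12) and BHLHE40 (-1.0 ± 0.17), the nuclear receptor RORA (-1.21 ± 0.17), the oxidase ERO1A (-0.92 ± 0.20), the collagen-modifying enzymes P4HA1 (-0.75 ± 0.13) and PLOD2 (-0.66 ± 0.16), and the carbonic anhydrase CA12 (-0.67 ± 0.09).

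Regulators of the pathway and some of its best known targets were not among the genes called lower. HIF1A, the oxygen-regulated subunit itself and the 1 member called higher, gave 977.7, 934.0 and 772.3 in A5M cells, against 619.0, 707.5 and 671.7 in uninduced cells (0.41 ± 0.11, limma adjusted p = 0.02). It is named after its value was seen, its uninduced 72 h level of 774 on average lay near the lowest A5M array, and it was called in 3 of the 6 fits without 1 array. Singled out in the same way, the angiogenic factor VEGFA differed by -0.12 (limma adjusted p = 0.70), the second alpha subunit EPAS1 by -0.08 (limma adjusted p = 0.77) and the prolyl hydroxylase EGLN1 by -0.46 (limma adjusted p = 0.11). Their groups overlapped, EGLN1 apart.

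The glycolysis list was uneven along the pathway. At its entry, the glucose transporter SLC2A1 gave 264.2, 332.2 and 280.9 in A5M cells, against 441.9, 673.1 and 450.7 in uninduced cells (-0.79 ± 0.14, limma adjusted p = 0.00097). SLC2A3, a second glucose transporter, and HK2, the inducible hexokinase, were also called (-0.38 ± 0.10 and -0.46 ± 0.13). Further probe sets of SLC2A3 gave 0.02 ± 0.17 and -0.11 ± 0.17, and that of HK2 gave -0.24 ± 0.47, none of them called. PFKFB4, which sets the level of the activator fructose 2,6-bisphosphate, differed by -1.46 ± 0.38, at signals under 120, and was called in 2 of the 6 fits without 1 array. GBE1 gave 433.8, 440.2 and 284.4 in A5M cells, against 960.4, 979.8 and 1201.6 in uninduced cells (-1.43 ± 0.14, limma adjusted p = 1.8e-07), and glycogen synthase GYS1 differed by -0.56 ± 0.12. Both enzymes build glycogen. Among the later enzymes, ALDOC (-0.93 ± 0.14), ENO2 (-0.55 ± 0.10), TPI1 (-0.43 ± 0.11), PGK1 (-0.39 ± 0.08), ALDOA (-0.38 ± 0.10) and GPI (-0.33 ± 0.10) were called. Further probe sets of TPI1 gave 0.12 ± 0.27 and -0.11 ± 0.07, neither called. Those of PGK1 gave -0.47 ± 0.10, -0.18 ± 0.15 and -0.20 ± 0.19, and that of ALDOA -0.30 ± 0.11. LDHA, which makes lactate, gave 6498.9, 7685.5 and 8167.8 in A5M cells, against 6710.1, 8432.9 and 7815.0 in uninduced cells (-0.04 ± 0.10, limma adjusted p = 0.90). The abundant enzymes GAPDH (0.07 ± 0.11) and ENO1 (-0.15 ± 0.08) were not called either. The genes of this paragraph outside the 6 largest changes were named after their values were seen.

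Part of this shift depended on which uninduced cells were used. Uninduced 84 h cells were themselves higher than uninduced 72 h cells in 8 hypoxia members and 3 glycolysis members, and lower in 0 of both by limma (1 in each list at an unadjusted p under 0.05), against 1.76% higher and 2.29% lower among all tested genes. ALDOC averaged 1393 in uninduced 84 h cells and 822 in uninduced 72 h cells (0.75 ± 0.14), and the A5M values of 639.8, 809.7 and 734.2 were close to those of uninduced 72 h cells. BNIP3L averaged 598 in uninduced 84 h cells and 323 in uninduced 72 h cells (0.86 ± 0.14), and P4HA1 differed by 0.63 ± 0.13 between the same groups. For ALDOC, BNIP3L and P4HA1 A5M cells against uninduced 72 h cells were not called (-0.17 ± 0.14, -0.33 ± 0.14 and -0.12 ± 0.13). ANGPTL4 (-2.27 ± 0.21), ZNF395 (-2.09 ± 0.11), DEPP1 (-1.75 ± 0.13), HILPDA (-1.37 ± 0.14), NDRG1 (-1.39 ± 0.14) and GBE1 (-1.17 ± 0.14) were called there too. In all, 16 hypoxia members and 6 glycolysis members were lower in that comparison, with medians of -0.35 and -0.13, against 4.02% lower and 3.73% higher among all tested genes. No hypoxia member was called higher there by limma (1 at an unadjusted p under 0.05), and 1 glycolysis member was, the glycolytic dehydrogenase GAPDH (0.43 ± 0.11, limma adjusted p = 0.018).

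**Figure D2:**
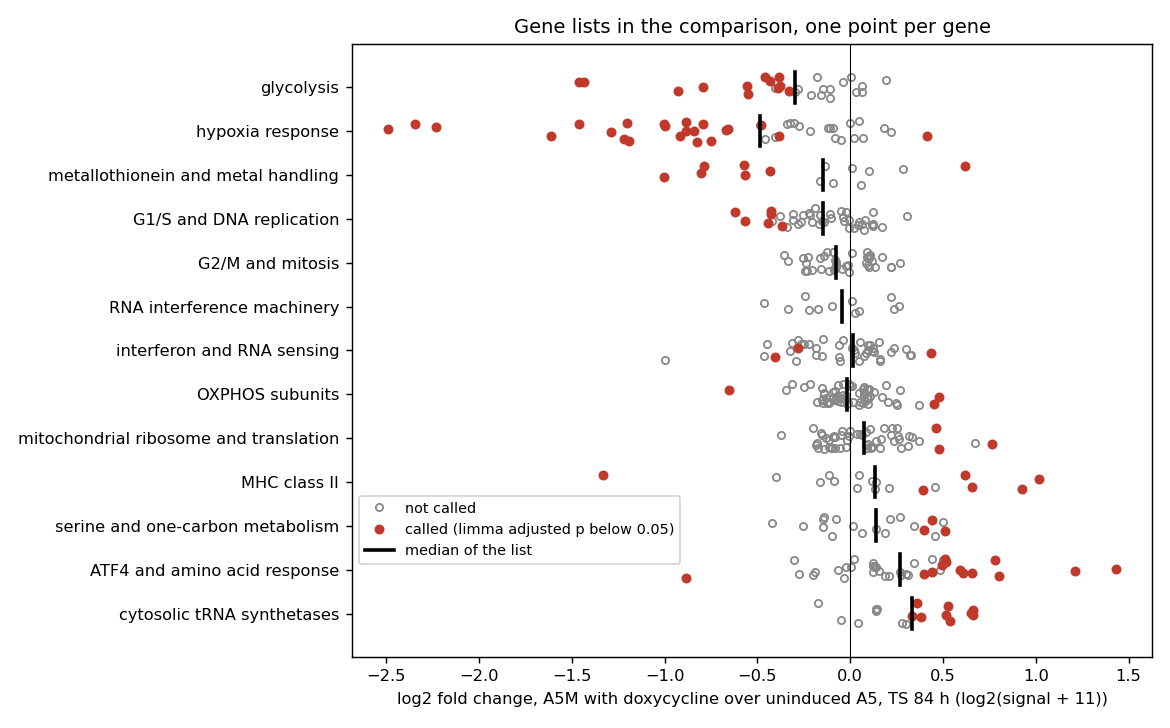
Log2 fold change of A5M cells with doxycycline over uninduced A5 cells at 84 h, 1 point per tested gene, for 13 of the gene lists. Filled points are called genes and black bars the list medians: the glycolysis and hypoxia medians lie at -0.30 and -0.48, and those of the ATF4 and tRNA synthetase lists at 0.27 and 0.33.

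The ATF4 and amino acid list moved the other way. Of 39 tested members 12 were higher and 1 lower, against 3.25% and 3.8% among all tested genes, with a list median of 0.27, and all 12 lay above all 6 uninduced arrays. The fit of the 6 arrays alone called 7 members. The promoters of CHAC1, ASNS and GOT1 are shown because they hold the response element, searched as TGATGNAA on both strands of the same 250 bases. Capitals mark it, at -209, -68 and -198 from the gene start. The windows in RefSeq build GRCh38.p14 are chr15:40953221-40953470 (plus strand), chr7:97872409-97872658 (minus strand) and chr10:99430625-99430874 (minus strand), each on the strand of the gene.
CHAC1: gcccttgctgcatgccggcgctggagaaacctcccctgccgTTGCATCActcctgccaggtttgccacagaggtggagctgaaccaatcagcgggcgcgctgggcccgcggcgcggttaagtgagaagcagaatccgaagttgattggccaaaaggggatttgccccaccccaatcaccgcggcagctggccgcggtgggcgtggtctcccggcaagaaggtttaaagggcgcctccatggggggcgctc
ASNS: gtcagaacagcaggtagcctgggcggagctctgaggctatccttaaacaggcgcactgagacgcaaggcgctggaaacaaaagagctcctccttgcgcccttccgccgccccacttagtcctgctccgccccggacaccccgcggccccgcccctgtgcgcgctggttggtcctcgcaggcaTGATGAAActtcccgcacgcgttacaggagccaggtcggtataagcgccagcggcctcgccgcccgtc
GOT1: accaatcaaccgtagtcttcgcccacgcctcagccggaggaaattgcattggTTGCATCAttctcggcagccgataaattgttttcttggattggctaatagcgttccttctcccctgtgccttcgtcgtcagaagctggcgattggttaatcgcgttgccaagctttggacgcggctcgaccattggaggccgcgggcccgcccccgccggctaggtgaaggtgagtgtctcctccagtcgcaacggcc
The element was in 3 of 10 windows of members called higher, in 3 of 23 windows of other tested members and in 1.74% of the windows of all tested genes. A window was found for 33 of the 39 tested members.

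CHAC1, which degrades glutathione, gave 119.4, 169.7 and 187.7 in A5M cells, against 49.3, 26.4 and 94.7 in uninduced cells (1.43 ± 0.23, limma adjusted p = 0.00037), although uninduced 72 h cells averaged 103. ASNS, asparagine synthetase, gave 1422.3, 1697.5 and 1740.8 in A5M cells, against 829.1, 992.3 and 954.5 in uninduced cells (0.80 ± 0.11, limma adjusted p = 4.6e-05). GOT1, which links aspartate and glutamate, gave 686.8, 787.4 and 878.0 in A5M cells, against 525.9, 471.9 and 368.5 in uninduced cells (0.78 ± 0.12, limma adjusted p = 0.00017). ASNS and GOT1 lay clear of both uninduced times. CEBPG, a partner of ATF4, differed by 0.65 ± 0.14. Named after their values were seen, the translation inhibitor EIF4EBP1 (0.61 ± 0.10), the glutamine transporter SLC1A5 (0.59 ± 0.10), the phosphatase subunit PPP1R15A (0.52 ± 0.13) and the tRNA exporter XPOT (0.49 ± 0.09) were called higher too. Serine synthesis genes in the list were PSAT1, with 648.3, 542.1 and 611.8 in A5M cells against 437.4, 414.4 and 402.1 in uninduced cells (0.51 ± 0.12), PHGDH (0.44 ± 0.12) and SHMT2 (0.40 ± 0.10). They were the 3 of 19 tested serine and one-carbon genes that were called, against 7.06% of all tested genes.

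The member that fell was DDIT4, an inhibitor of mTORC1 that is also a HIF target and stands in the hypoxia list too. It gave 1611.9, 1754.5 and 1588.6 in A5M cells, against 3209.1, 2744.5 and 3249.6 in uninduced cells (-0.89 ± 0.08, limma adjusted p = 7.7e-08). The mRNA of ATF4 itself gave 2763.3, 2914.9 and 3494.9 in A5M cells, against 2530.9, 3491.5 and 2317.2 in uninduced cells (0.15, limma adjusted p = 0.56). The stress regulators DDIT3 (0.13, limma adjusted p = 0.61) and ATF3 (0.14, limma adjusted p = 0.41) and the amino acid transporters SLC7A5 (0.12, limma adjusted p = 0.65) and SLC3A2 (0.13, limma adjusted p = 0.62), singled out after their values were seen, were not called.

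Cytosolic tRNA synthetases load amino acids on tRNA. Of 17 tested, 9 were higher and 0 lower, with a median of 0.33, and none was lower at an unadjusted p under 0.05 by limma. Among all tested genes 3.25% were higher and 3.8% lower. Of the 9, 7 lay above all 6 uninduced arrays and 4 were called with the 6 arrays alone. The tyrosine enzyme YARS1 gave 2421.8, 2647.8 and 2965.6 in A5M cells, against 1702.2, 1586.5 and 1772.2 in uninduced cells (0.66 ± 0.09, limma adjusted p = 2.4e-05). The alanine enzyme AARS1 gave 1264.9, 1292.3 and 1589.0 in A5M cells, against 907.2, 964.8 and 757.2 in uninduced cells (0.65 ± 0.11). The groups did not overlap in either. VARS1 (0.66 ± 0.15), GARS1 (0.54 ± 0.10), SARS1 (0.53 ± 0.10) and WARS1 (0.51 ± 0.15) followed, and EPRS1, NARS1 and CARS1, named after their values were seen, were called at 0.38, 0.36 and 0.33. In the endoplasmic reticulum list 3 of 22 members were higher and 0 lower (1 at an unadjusted p under 0.05 by limma). They were the chaperone HSPA5, with 2377.9, 2432.4 and 2421.2 in A5M cells against 1384.2, 1137.8 and 1492.3 in uninduced cells (0.85 ± 0.11, limma adjusted p = 1.4e-05), HYOU1 (0.49 ± 0.11) and SDF2L1 (0.54 ± 0.11), whose uninduced 72 h level averaged 230.

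Lists of mitochondrial genes were included because the drug can act on mitochondrial ribosomes. Of 54 mitochondrial ribosome and translation genes 3 were higher (MRPS18A at 0.77 ± 0.19, DAP3 at 0.48 ± 0.13 and MRPL24 at 0.46 ± 0.12) and 0 lower (2 at an unadjusted p under 0.05 by limma), with a median of 0.07. Of 60 subunits of the respiratory chain 2 were higher, ATP5F1B (0.45 ± 0.09) and NDUFS6 (0.48 ± 0.11), and 1 was lower, NDUFB11 (-0.65 ± 0.13), with a median of -0.02. Each of these counts stands near the share of all genes called. Of 18 mitochondrial stress genes 2 were higher and 0 lower by limma (0 lower also at an unadjusted p under 0.05). Among all tested genes 3.25% were higher and 3.8% lower. The 2 were the chaperone HSPA9 (0.45 ± 0.09) and the importer TIMM17A (0.39 ± 0.11). Neither was called against uninduced 72 h cells (0.22 ± 0.09 and -0.01 ± 0.11), where TIMM17A averaged 1204, within its A5M values. The fit of the 6 arrays alone called 0 of the 18.

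Hairpins enter the microRNA pathway, and double-stranded RNA can set off interferon genes. None of 12 RNA interference genes was called by limma (2 lower and 0 higher at an unadjusted p under 0.05). DICER1 gave 2021.6, 1784.1 and 1359.1 in A5M cells, against 2170.4, 2023.4 and 2249.5 in uninduced cells (-0.33 ± 0.13, limma adjusted p = 0.13), and TNRC6B, part of the silencing complex, differed by -0.46 ± 0.18 (limma adjusted p = 0.15). Of 42 interferon and RNA sensing genes OASL was higher (0.43 ± 0.12) and IFNGR2 (-0.41 ± 0.10) and IFITM2 (-0.28 ± 0.09) were lower, with a median of 0.01, shares near those of all genes. OASL was called in 0 of the 6 fits without 1 array.

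Genes of DNA replication showed a small fall and mitotic genes none that was called. Of 42 G1/S genes 6 were lower and 0 higher by limma (1 higher at an unadjusted p under 0.05), with a median of -0.15. Among all tested genes 3.8% were lower and 3.25% higher. MCM2, a helicase subunit, gave 1180.1, 1248.0 and 1086.0 in A5M cells, against 1680.0, 1697.6 and 1421.3 in uninduced cells (-0.44 ± 0.09, limma adjusted p = 0.0046). PCNA, the sliding clamp (-0.62 ± 0.19), MCM5 (-0.56 ± 0.16), MCM4 (-0.37 ± 0.10), the ligase LIG1 (-0.43 ± 0.11) and the primase PRIM1 (-0.43 ± 0.13) were the others. All 6 lay below all 6 uninduced arrays, but only MCM2 was called in each of the 6 fits without 1 array, and none of the 6 in the fit of the 6 arrays alone. Of 39 G2/M genes 0 were called by limma (3 lower and 0 higher at an unadjusted p under 0.05), with a median of -0.07. With the ALK hairpin 42 of the 42 G1/S genes and 38 of the 39 G2/M genes were lower against the same uninduced arrays, with medians of -1.97 and -2.14. Of all tested genes 18.7% were lower there.

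The targets of ALK signalling gave a mixed picture. Of 34 STAT3 target genes 6 were lower and 3 higher, with a median of -0.14, against 3.8% lower and 3.25% higher among all tested genes. The fit of the 6 arrays alone called 1 member. STAT3 itself gave 1919.9, 1847.5 and 1710.7 in A5M cells, against 2480.0, 2499.5 and 2760.1 in uninduced cells (-0.50 ± 0.08, limma adjusted p = 0.00051). The kinase PIM1 (-0.48 ± 0.10), the cytokine IL10 (-0.77 ± 0.18) and IL2RA (-0.59 ± 0.12) were lower. For these 4 genes every A5M array lay below all 6 uninduced arrays. BCL6 was lower as well (-0.48 ± 0.14), but not against uninduced 72 h cells (0.15 ± 0.14). The largest change of the list was a rise, that of the receptor IL21R (1.14 ± 0.29). It gave 45.1, 54.0 and 58.2 in A5M cells, against 34.9, 10.5 and 12.9 in uninduced cells. IL21R was not called against uninduced 72 h cells (0.34 ± 0.29). CEBPB (0.21 ± 0.09, limma adjusted p = 0.21) and BCL2A1 (-0.33 ± 0.11, limma adjusted p = 0.088), known targets of the ALK fusion, were not called. CCL20, a chemokine that attracts lymphocytes and immature dendritic cells, gave 1297.4, 1432.1 and 1217.1 in A5M cells, against 2298.7, 2473.7 and 2313.8 in uninduced cells (-0.84 ± 0.10, limma adjusted p = 3.9e-06). Of the 27 inflammasome, NF-kB and cytokine genes it was 1 of 4 called, all lower, with NLRP3, IL10 and NFKBIA (-0.42 ± 0.12). Against uninduced 72 h cells CCL20 and NLRP3 were called lower too, while NFKBIA (-0.08 ± 0.12) and IL10 (-0.54 ± 0.18) were not called.

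MHC class II genes present peptides to helper T cells. Of 17 tested, 5 were higher and 1 lower, with a median of 0.13, against 3.25% higher and 3.8% lower among all tested genes. HLA-DRA gave 403.4, 406.5 and 464.1 in A5M cells, against 171.5, 214.4 and 281.0 in uninduced cells (0.92 ± 0.14, limma adjusted p = 0.00022). HLA-DRB1 (1.02 ± 0.14), HLA-DPB1 (0.62 ± 0.15), HLA-DPA1 (0.39 ± 0.10) and the invariant chain CD74 (0.65 ± 0.17, groups overlapping) were the others. The HLA-DRB1 probe set may also read closely related genes, so the member it reports is uncertain. CIITA, the activator of these genes, was the lower one (-1.33 ± 0.36), but its signals were under 125 and its other 2 probe sets gave 0.57 and 0.64, neither called. With the ALK hairpin HLA-DRA averaged 2659.

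Metallothioneins, which bind zinc and copper, showed how far the choice of uninduced cells matters. Of 14 tested genes of this list 6 were lower and 1 higher, with a median of -0.15, against 3.8% lower and 3.25% higher among all tested genes. MT1X gave 1693.8, 1360.7 and 1061.9 in A5M cells, against 2542.0, 2946.3 and 2653.1 in uninduced 84 h cells (-1.0 ± 0.19, limma adjusted p = 0.0018), but 1198.1, 859.9 and 774.9 in uninduced 72 h cells. Uninduced 84 h cells were higher than uninduced 72 h cells for MT1X (1.53 ± 0.19) and MT2A (1.03 ± 0.14), and A5M cells were not called against uninduced 72 h cells for either (0.53 ± 0.19 and 0.23 ± 0.14). MT2A (-0.80 ± 0.14), MT1H (-0.79 ± 0.22), MT1E (-0.57 ± 0.16) and MT1G (-0.57 ± 0.11) were also lower than in uninduced 84 h cells, with overlapping groups for MT1H, but these genes are near copies and their probe sets may read one another. The zinc importer SLC39A14, the higher one, gave 494.9, 481.1 and 441.0 in A5M cells, against 301.5, 288.1 and 322.2 in uninduced 84 h cells (0.62 ± 0.11). The chemokine receptor CCR7 followed the same course, lower against uninduced 84 h cells (-0.72 ± 0.14) and not called against uninduced 72 h cells (0.37 ± 0.14).

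The A5 cells that received the same drug offer values beside those of A5M, although they also lose ALK. The comparison of induced with uninduced A5 cells at 84 h shares the uninduced arrays with the A5M comparison, so only the values are set side by side. For ANGPTL4 the difference was 0.57 ± 0.21 with the ALK hairpin and -2.49 ± 0.21 with A5M. DEPP1 (0.52 ± 0.13), NLRP3 (0.87 ± 0.16), GBE1 (0.67 ± 0.14) and NDRG1 (0.67 ± 0.14) were likewise higher with the ALK hairpin, and PLAC8, a small cysteine-rich protein, was 1.42 ± 0.13 with the ALK hairpin and -2.38 ± 0.13 with A5M. CLEC2B (-1.97 ± 0.18), ZNF395 (-1.05 ± 0.11), HILPDA (-0.97 ± 0.14) and APOL1 (-0.81 ± 0.11) were lower with the ALK hairpin too. In the direct comparison, induced A5 cells against A5M cells, where 43.4% of genes were called, 23.4% higher and 20% lower, ANGPTL4 was higher by 3.06 ± 0.21 and CLEC2B differed by 0.19 ± 0.18 (limma adjusted p = 0.44). Over the whole hypoxia list, 12 members were higher and 13 lower with the ALK hairpin (median -0.05), where 21.8% of all tested genes were higher and 18.7% lower. Of the ATF4 list 5 were higher and 15 lower with the ALK hairpin (median -0.15).

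**Figure D3:**
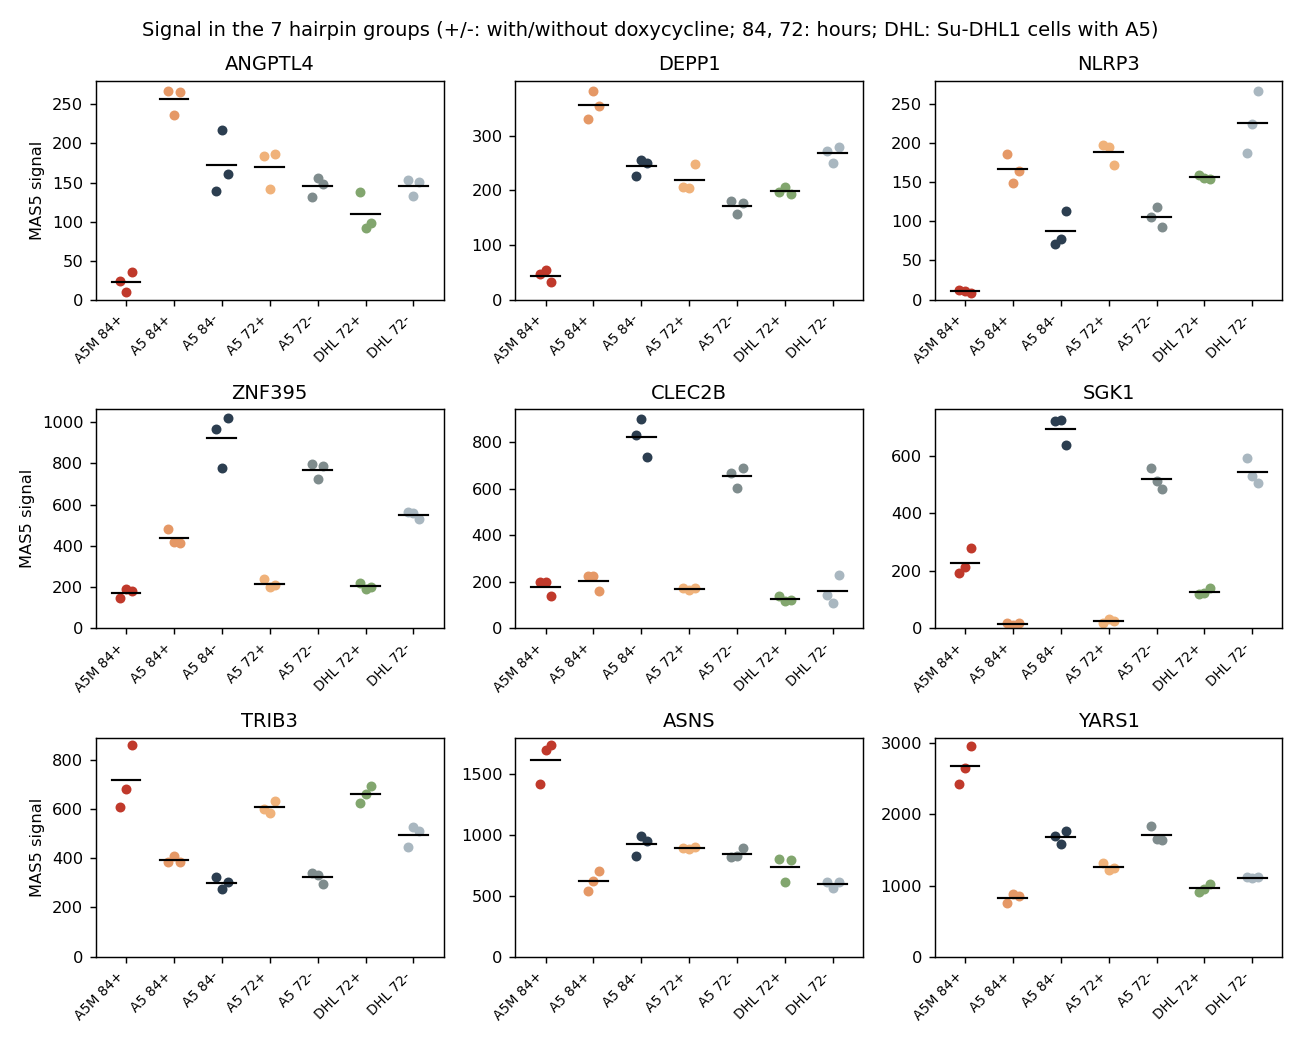
MAS5 signal of 9 genes in the 7 hairpin groups, 1 point per array with the group mean as a bar. ANGPTL4, DEPP1 and NLRP3 are lowest in A5M cells with doxycycline of all groups, while ZNF395, CLEC2B and SGK1 in TS cells are low in every group with doxycycline.

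The 72 h comparisons of A5 cells with and without doxycycline share no array with the A5M comparison. Of the 346 genes lower in A5M cells, 111 (32.1%) were lower in induced TS cells at 72 h and 93 (26.9%) higher, where 15.1% and 18.8% of all tested genes were. These were 8.07% and 5.44% of the genes lower and higher at 72 h. Of the 296 genes higher in A5M cells, 78 (26.4%) were higher at 72 h and 74 (25%) lower, which were 4.56% and 5.38% of those lists. In Su-DHL1 cells, a second ALK-positive line, 102 of the 346 (29.5%) were lower and 75 (21.7%) higher, against 10.7% and 13.9% of all tested genes (24.6% called in all); they made up 10.5% and 5.93% of those lists. Of the 296, 53 (17.9%) were higher in Su-DHL1 and 69 (23.3%) lower, which were 4.19% and 7.08% of those lists. The shares of the 346 and of the 296 stood above those of all tested genes in both directions in both lines.

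Some leading genes were lower in all these comparisons of doxycycline-treated with untreated cells. ZNF395 differed by -1.79 ± 0.11 in TS cells at 72 h and by -1.39 ± 0.11 in Su-DHL1 cells, HILPDA by -1.45 ± 0.14 and -1.77 ± 0.14, APOL1 by -0.93 ± 0.11 and -1.32 ± 0.11, and SGK1 by -3.90 ± 0.15 and -2.00 ± 0.15. STAT3 differed by -0.46 ± 0.08 and -0.44 ± 0.08, close to its -0.50 ± 0.08 with A5M. CLEC2B was lower in TS cells at 72 h (-1.88 ± 0.18) and was not called in Su-DHL1 cells (-0.27 ± 0.18), where it averaged 159 even without the drug. TRIB3 was higher in both (0.89 ± 0.11 and 0.41 ± 0.11) and HLA-DRA too (2.92 ± 0.14 and 2.86 ± 0.14). ANGPTL4 was called in neither (0.21 ± 0.21 and -0.40 ± 0.21), NLRP3 was higher in TS cells (0.77 ± 0.16) and lower in Su-DHL1 cells (-0.49 ± 0.16), and ASNS was called in neither (0.08 ± 0.11 and 0.29 ± 0.11). Loss of ALK and the drug cannot be told apart in these comparisons of A5 cells.

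**Figure D4:**
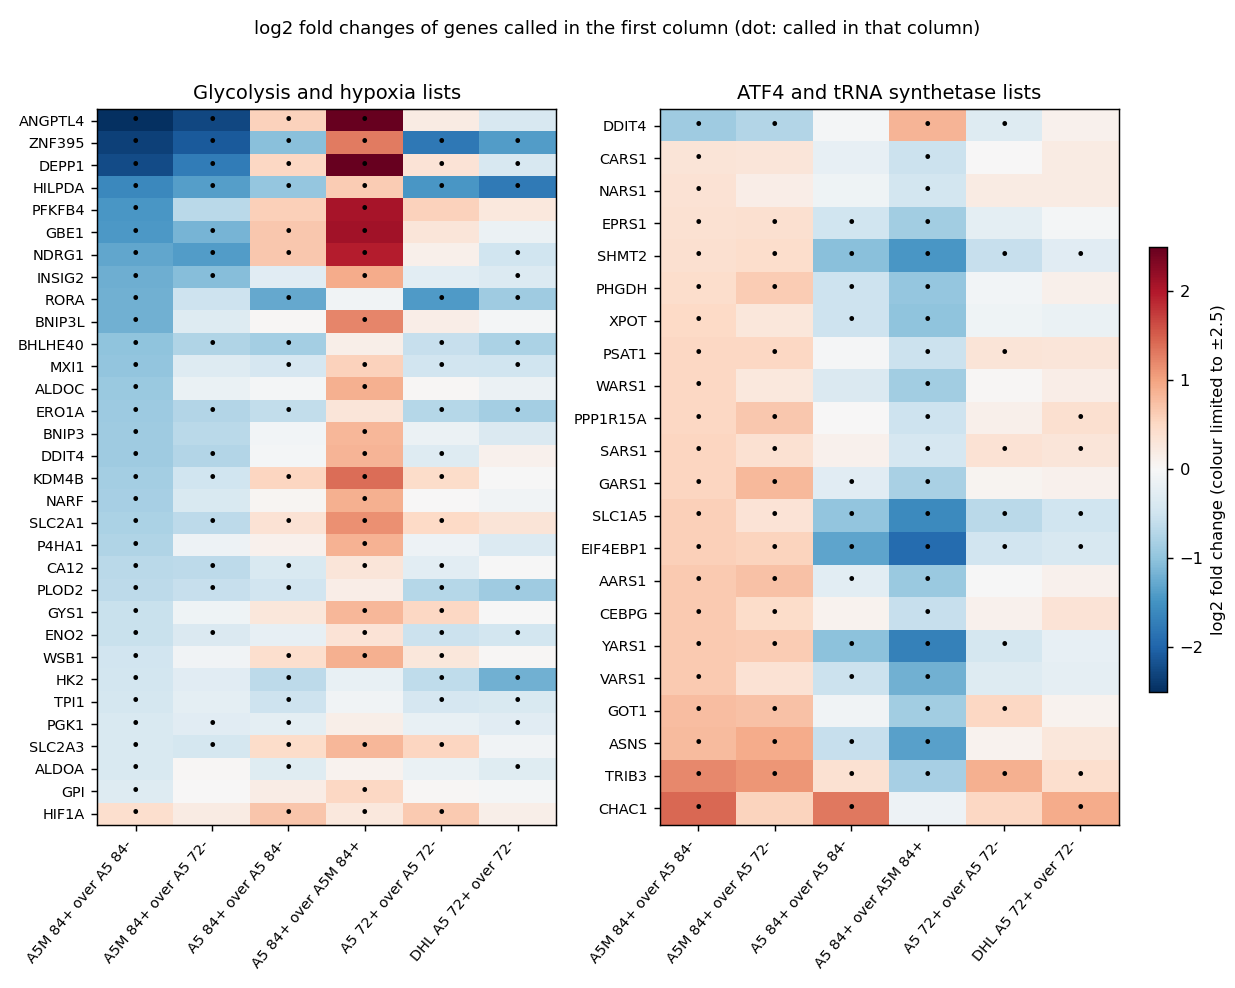
Log2 fold changes, by colour, of the called members of the glycolysis and hypoxia lists (left) and of the ATF4 and tRNA synthetase lists (right) in 6 comparisons, with a dot where the gene was called. The first column is A5M cells with doxycycline over uninduced A5 cells at 84 h, on which the genes were chosen; columns 1 to 4 share arrays with one another, and the last 2 share none with the first.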

How the data were processed

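Total RNA of the 33 samples was measured on HG-U133A arrays, 1 array each. Per the submitters' processing notes, the authors made the deposited intensity values, a MAS5 signal per probe set on a linear scale, with MAS5. Which version and settings they chose is not given in the sources used here. Every array had a trimmed mean (2% off each end) of 200.06 to 200.08, so no further normalization was applied, and a global change of RNA content cannot be seen. Of 22283 probe sets 68 controls were left out; by the platform annotation 19065 of the rest had 1 gene symbol, 1043 several and 2107 none, and 19053 matched a gene ID of GRCh38.p14.

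Signals were taken as log2(signal + 11). Probe sets passed (15338) when 3 or more arrays had them at or above the array's own 40th percentile, and the one with the highest mean stood for its gene (9097 genes). Groups came from the sample titles. limma 3.58.1 in R 4.3.3 (lmFit, eBayes with trend) was fitted to the 21 hairpin arrays in 7 groups (14 residual degrees of freedom), with Benjamini-Hochberg adjustment over all genes; it was tested on simulated data. The number of arrays limits the precision. Figures used matplotlib 3.10.9.

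The members and the 30 gene lists were chosen with earlier results of these data known. Named by rule were ALK, NPM1, CEBPB and BCL2A1, the 15 highest and 15 lowest changes among called genes whose groups do not overlap, and up to 6 called members of each list by size of change (2 where none was called). Replicate numbers did not pair arrays: deviations from group means of same-numbered arrays correlated at -0.0032, 0.021 and 0.0085. Alternatives covered the pseudocount, filter, normalization, trend, array weights, the ACTB ratio as covariate, the arrays in the fit, the threshold, a replicate block and each array left out.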

Additional observations from a re-analysis of the deposited data

How the results depend on the processing

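The count of genes called between A5M cells with doxycycline and uninduced A5 cells was 642 over the 21 arrays, 147 with only the 6 arrays in the fit, 92 when limma's treat asked for more than 1.2-fold, 273 at an adjusted p under 0.01, and 403 without the 2 arrays of lowest weight, an alternative chosen after seeing the data. Leaving out 1 array gave 439 to 586. The replicate numbers did not pair the arrays, and with the replicate number as a block it was 538. A5M against uninduced 72 h cells gave 1142 with limma arrayWeights, 131 with the block and 518 to 772 without 1 array. Uninduced 84 h against 72 h cells gave 217 without a trend, 38 with the block and 183 to 472 without 1 array. With the ACTB ratio as covariate, induced A5 cells gave 1904 calls against uninduced 84 h cells, 2401 against A5M cells and 1418 at 72 h in TS cells; without 1 of the 6 arrays of the A5M comparison these were 3299 to 3803, 3611 to 4045 and 3089 to 3250, and 2229 to 2392 in Su-DHL1 cells. Of the lists, glycolysis had 4 called members with the 6 arrays, 2 with treat, 6 at the stricter threshold and 7 to 12 without 1 array, the lowest without A5M replicate 1, A5M replicate 2 or uninduced replicate 2. Hypoxia had 14 with treat and 20 to 22 without 1 array. The ATF4 list had 7 with the 6 arrays, 5 with treat and 12 to 14 without 1 array. The tRNA synthetases had 4 with the 6 arrays, 1 with treat and 6 to 7 without 1 array, 5 without a trend and 5 at the stricter threshold. Uncalled genes changed sign: NPM1 was 0.013 with arrayWeights, 0.033 without the 2 arrays of lowest weight and -0.043 to 0.029 without 1 array (0.0011 without uninduced replicate 1); KRT18 was -0.024 to 0.589 and COL3A1 -0.067 to 0.337 without 1 array, lowest without uninduced replicates 2 and 1; and HBB was 0.0053 with median centring and -0.272 to 0.269 without 1 array, above 0 without A5M replicate 2 (0.031) or uninduced replicate 3. Over all named genes and settings, 2105 values kept direction and side of the threshold, 485 lost their call, 4 gained one and 9 changed sign; no called gene did. A stricter rule lowers a count by its construction. Leaving out arrays lowered some counts and raised others, as from 368 to at most 472 for uninduced 84 h against 72 h cells. The cause of these and of the other moves was not tested. The median log2 fold change of all genes was 0.0068 with quantile normalization and 0.014 with median centring, against 0.0011.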

Other observations

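Some genes of lipid synthesis, protein folding and growth were higher in A5M cells than in uninduced 84 h cells. Of 23 cholesterol and fatty acid genes 4 were higher and 0 lower by limma (0 lower also at an unadjusted p under 0.05), with a median of 0.18, against 3.25% of all tested genes. FASN, the fatty acid synthase, gave 811.9, 888.1 and 1028.6 in A5M cells, against 617.2, 644.2 and 529.0 in uninduced cells (0.60 ± 0.13, limma adjusted p = 0.0067). DHCR7, which completes cholesterol synthesis, differed by 0.55 ± 0.13, and ACLY, which makes cytosolic acetyl-CoA, by 0.37 ± 0.09. The fourth, ACACA, rested on 1 uninduced array at 17.0, and its second probe set gave -0.05. The fit of the 6 arrays alone called 1 of the 23. FASN and DHCR7 lay above all 6 uninduced arrays. Against uninduced 72 h cells 8 of the 23 were higher, where 3.73% of all genes were. Of 16 heat shock genes 3 were higher and 0 lower (0 lower also at an unadjusted p under 0.05 by limma): HSPH1 (0.72 ± 0.18), HSPA4 (0.46 ± 0.11) and STIP1 (0.34 ± 0.10). Uninduced 84 h cells were lower than uninduced 72 h cells for HSPH1 (-0.71 ± 0.18), HSPA4 (-0.38 ± 0.11) and STIP1 (-0.51 ± 0.10). The same held for NOLC1, a nucleolar protein of the MYC list (-0.67 ± 0.10). A5M cells were close to uninduced 72 h cells for each of these genes (0.01 ± 0.18, 0.08 ± 0.11, -0.17 ± 0.10 and -0.12 ± 0.10).

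For each list below, the shares of all tested genes were 3.8% lower and 3.25% higher. Of 22 BCL2 family and apoptosis genes 4 were lower and 0 higher (3 higher at an unadjusted p under 0.05 by limma). CFLAR, the caspase 8 inhibitor FLIP, gave 1203.0, 1075.0 and 926.4 in A5M cells, against 1800.6, 1584.8 and 1848.9 in uninduced cells (-0.71 ± 0.09, limma adjusted p = 3.5e-05), and 8 of its 9 further probe sets had the same sign. The others were BIRC2 (-0.40 ± 0.09) and the mitophagy receptors BNIP3L and BNIP3. Of 22 FOXO and PI3K-AKT genes 4 were lower and 0 higher (1 higher at an unadjusted p under 0.05 by limma): SGK1, CCNG2 (-0.82 ± 0.21), the insulin receptor substrate IRS1 (-0.80 ± 0.17) and TRIB2 (-0.68 ± 0.12). TRIB2 gave 112.8, 124.6 and 133.1 in A5M cells, against 199.2, 216.1 and 198.4 in uninduced cells, while it was higher by 2.41 ± 0.12 with the ALK hairpin. Of 26 T-cell genes 4 were lower and 0 higher (0 higher also at an unadjusted p under 0.05 by limma): CCR7, GATA3 (-0.73 ± 0.18, groups overlapping), ICOS (-0.47 ± 0.14) and LEF1 (-0.44 ± 0.14). Of 18 p53 targets TIGAR, which lowers glycolytic flux, was higher (0.97 ± 0.13), although it averaged 311 in uninduced 72 h cells, and TP53I3 (-0.58 ± 0.15) and GADD45B (-0.47 ± 0.10) were lower. Of 33 MYC and ribosome genes NOLC1 (0.56 ± 0.10), WDR12 (0.48 ± 0.15) and DDX21 (0.32 ± 0.10) were higher and EXOSC5 was lower (-0.43 ± 0.13). The groups overlapped for WDR12, DDX21 and EXOSC5. Against uninduced 72 h cells 0 of the 33 were called by limma (0 higher and 1 lower at an unadjusted p under 0.05). The fit of the 6 arrays alone called 0 of them too. Of 26 ERK target genes MAFF (-0.80 ± 0.14), JUN (-0.49 ± 0.12) and IER3 (-0.35 ± 0.09) were lower and 0 were higher (2 at an unadjusted p under 0.05 by limma). The further probe set of MAFF gave -0.05 ± 0.17 and that of JUN -0.07 ± 0.21, neither called. Against uninduced 72 h cells CCNG2 (-0.07 ± 0.21), BIRC2 (-0.10 ± 0.09), JUN (0.17 ± 0.12) and IER3 (-0.09 ± 0.09) were not called. Neither were GATA3 (-0.49 ± 0.18), TP53I3 (-0.34 ± 0.15), BNIP3L (-0.33 ± 0.14) and BNIP3 (-0.67 ± 0.22). CFLAR, SGK1, IRS1, TRIB2, ICOS, LEF1, GADD45B and MAFF were called lower there too.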
